A study of Mus musculus with 2 samples.

Results

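The microRNAs described here are the mouse miR-297, miR-466, miR-467 and miR-669 families, most of which are encoded together in the Sfmbt2 gene. Members were chosen by name alone, as every array probe for one of these 4 family numbers followed by a letter, with both arms of a precursor included. This gave 71 of the 1892 microRNA probes on the array, of which 4 are for miR-297, 27 for miR-466, 13 for miR-467 and 27 for miR-669. The study profiled baseline, unwounded skin and unwounded oral mucosa of the mouse, in work that asks which microRNAs differ between a tissue that heals quickly and one that heals more slowly. For each tissue, RNA of 3 animals was pooled and 2 µg of it put on 1 single-colour (Cy5) array, and the study's methods describe its mice as young adult female Balb/c. The sources name the samples sometimes as tissue and sometimes as epithelium, and how much of the layers below the epithelium they held is not stated. A pool on 1 array carries no spread between animals, so each difference below is one between 2 arrays, and no test between the tissues was possible. Each probe sat on 2 repeat spots per array, and the SD over these spots is error within an array only.

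MicroRNAs are short RNAs that guide Argonaute proteins to target transcripts, mainly by pairing through the seed, bases 2 to 8 from the 5′ end. The Sfmbt2 cluster is found in rodents. It lies in an intron of Sfmbt2, which encodes a Polycomb group protein and is an imprinted gene expressed from the paternal copy in the early embryo and placenta. The cluster grew by repeated duplication of a short unit, so its mature sequences are close relatives rich in alternating G and U on one arm and A and C on the other. Single members have been studied elsewhere, among them miR-669a, described as a repressor of MyoD in muscle progenitors, miR-467b, described as a repressor of lipoprotein lipase, and miR-466l, described as a binder of the Il10 transcript.

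The sequences below are those the results turn on, namely 7 of the 8 members that differed 2-fold or more between the arrays and the near-identical members they are set against. They are the mature sequences in the deposited array files, 5′ to 3′, with the seed in capitals. RefSeq (GRCm38.p6) lists 8 of the 71 members by name, and all 8 mature sequences are the same as on the array. First come the 5 members that were brighter on the skin array. 
miR-466p-5p: uAUGUGUGuguacauguacau
miR-466a-5p: uAUGUGUGuguacauguacaua
miR-466e-5p: gAUGUGUGuguacauguacaua
miR-466b-5p: uGAUGUGUguguacauguacau
miR-669o-5p: uAGUUGUGugugcauguuuaugu
The next lines hold 2 of the 3 members that were brighter on the oral mucosa array. 
miR-466j: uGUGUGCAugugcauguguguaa
miR-297a-5p: aUGUAUGUgugcaugugcaugu
These close relatives read differently from one of the members above or from each other. 
miR-466m-5p: uGUGUGCAugugcauguguguau
miR-297c-5p: aUGUAUGUgugcauguacaugu
miR-669d-5p: aCUUGUGUgugcauguauaugu
miR-669l-5p: aGUUGUGUgugcauguauaugu
A further set shows 1 plain repeat of the G and U kind and 3 members of the A and C kind carried on 3p arms, whose repeats are broken by other bases. 
miR-466i-5p: uGUGUGUGugugugugugug
miR-466f-3p: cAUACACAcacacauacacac
miR-467b-3p: aUAUACAUacacacaccaacac
miR-467d-3p: aUAUACAUacacacaccuacac

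Most members gave signal in both tissues, which was not the case for the array as a whole. Detection required that a probe's average spot exceed the average of the 16 empty spots on that array by more than 3 SD. Empty spots read 36.4 ± 7.84 scanner units (SD) for skin and 51.9 ± 6.65 for oral mucosa, which put the limits at 59.9 and 71.8. On the skin array 54 of the 71 members were detected, against 23.6% of all probes. On the oral mucosa array 57 were detected, against 27% of all probes. At least 1 array detected 58 members, or 81.7%, against 29.7% of all probes and 27.7% of the 1821 probes outside the families. Both arrays detected 53. Of the summed signal above the empty-spot mean, members supplied 9.90% in skin and 12.9% in oral mucosa. In pooled tissue, fewer cells that hold a microRNA and less of it in each cell cannot be told apart.

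Detection followed the family unevenly. The miR-466 family had 23 of 27 members detected on at least 1 array, miR-467 had 11 of 13 and miR-669 had 22 of 27. Of the 4 miR-297 probes only the 2 arms of miR-297a were detected. Arms were alike, with 24 of 30 5p members and 24 of 29 3p members detected, and 10 of the 12 whose names carry no arm. Members nearest the limits show how close the call could be. On the skin array miR-669i lay just inside at 71.2 ± 4.28 and miR-466k just outside at 58.4 ± 6.24. On the oral mucosa array miR-466p-5p lay just inside at 73.5 ± 0.636 and miR-297b-5p just outside at 64.7 ± 3.16.

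Detection was more frequent in members with a long alternating repeat. The longest run in which G alternates with U, or A with C, was counted in each mature sequence, whichever of the 2 was longer. All 36 members with a run of at least 8 bases were detected on at least 1 array, as were 11 of 12 with a run of 7 and 8 of 13 with a run of 6, but only 3 of 10 with a run of 5 or less. Those 3 were miR-467a-5p, miR-467b-5p and miR-467e-5p, detected on the oral mucosa array alone. The same order was present outside the families. There, all 8 probes with a run of at least 8 were detected, 4 of 7 with a run of 7, 16 of 32 with a run of 6, and 476 of 1774 (26.8%) with a run of 5 or less. At runs of at least 8 bases every probe was detected, so no difference between members and other probes could show there.

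**Figure D1:**
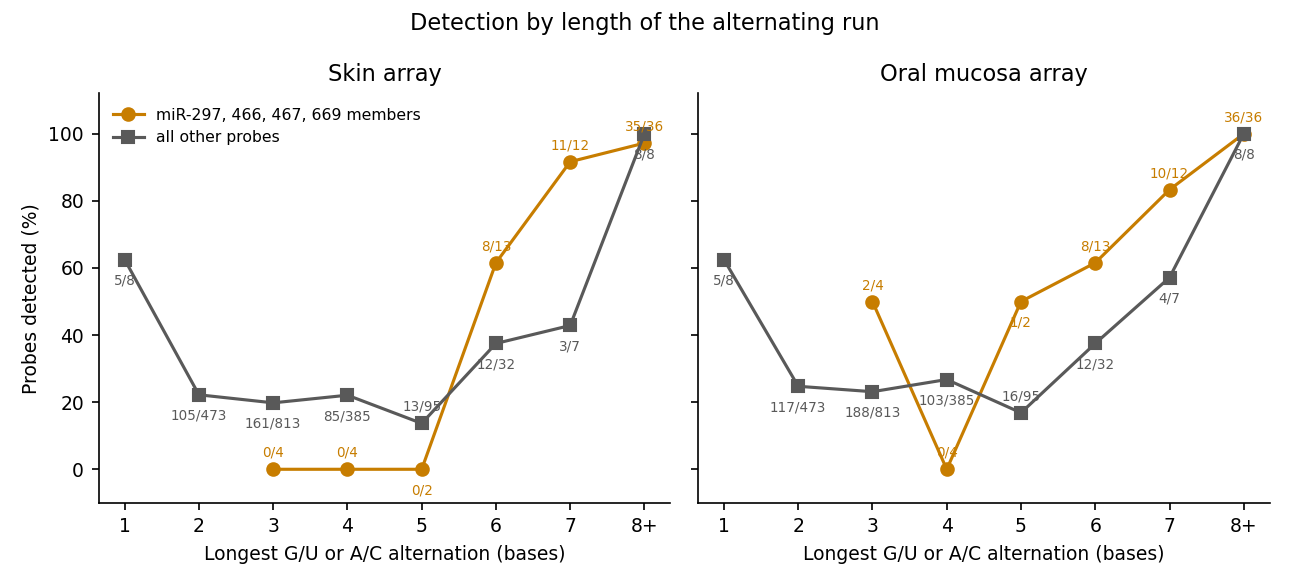
Share of probes detected (percent) on the skin array (left) and the oral mucosa array (right) against the longest G/U or A/C alternation in the mature sequence (bases, with 8 or more pooled). Circles are members of the 4 families, squares are all other probes, and each fraction gives detected over total. Both sets approach full detection at 8 bases or more, with 35 of 36 members and 8 of 8 other probes on the skin array.

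Brightness ran over a wide range. The member with the strongest spots was miR-466i-5p, whose sequence is an uninterrupted G and U repeat. Its repeat spots read 5633 and 3992 scanner units for skin and 9694 and 7471 for oral mucosa. Among 3p members, miR-466f-3p read 2408 and 1415 on skin and 3374 and 2442 on oral mucosa. The miR-466h-3p spots read 1987 and 1294 against 3414 and 2431. Both of these 3p members carry the A and C repeat. The bright set also held miR-669c-3p (means of 1583 ± 353 on skin and 2357 ± 408 on oral mucosa), miR-669p-3p (1620 ± 160 and 2303 ± 187) and miR-467f (1538 ± 151 and 2200 ± 186). On the skin array it held miR-669e-3p (1437 ± 227) and miR-669n (1361 ± 135.7), and on the oral mucosa array miR-466f (3605 ± 713) and miR-466j (2145 ± 342). Brightness depends on how well each probe binds its target, so these values do not rank the abundance of the microRNAs, and only the difference of 1 probe between the arrays is compared below.

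Before arrays were compared, their signals were put on a common scale by variance stabilizing normalization (VSN), fitted on all 1892 probes. It took off an offset of 37.9 scanner units for skin and 46.3 for oral mucosa, and treated the oral mucosa array as 1.37 times as bright. A difference is the VSN log2 value in oral mucosa less that in skin, so 1 stands for 2-fold higher in oral mucosa. Where an array did not detect a member, the lowest detected signal stood in for it unless its own signal was higher. The members as a whole were centred near 0. The median difference over the 58 detected members was -0.02, beside -0.0037 over all 562 detected probes, and 29 members lay above 0 and 29 below.

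**Figure D2:**
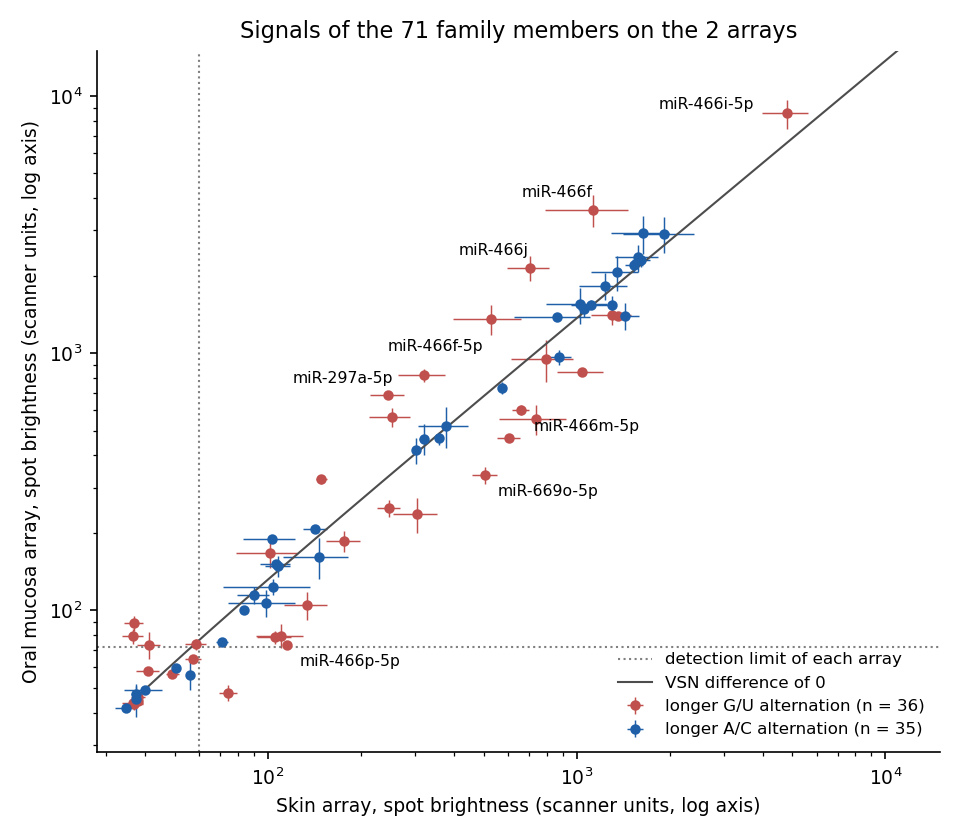
Mean spot brightness of the 71 members for skin (x axis) and oral mucosa (y axis), in scanner units on log axes, with bars that reach to the 2 repeat spots. Dotted lines are the detection limits of 59.9 and 71.8, the solid curve marks a VSN difference of 0, and A/C members lie nearer to it than G/U members.

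Single members did differ, in both directions. A difference of 2-fold or more toward oral mucosa was measured for 3 of the 58 detected members, against 13.7% of all detected probes. A difference of that size toward skin was measured for 5, against 14.8%. The members' shares were 5.17% and 8.62%. Toward oral mucosa this order depended on the normalization, with 8.62% of members against 7.47% of all detected probes after quantile normalization and 8.62% against 8.36% after scaling to the median. The full range of members ran from -1.96 for miR-466p-5p to 1.25 for miR-466f. Just short of the threshold was miR-669e-5p at 1.00 ± 0.43 (SD of the repeat spots, here and below), which rounds to it. Only the skin array detected miR-466n-5p, with a mean of 74.5 ± 6.97 against 47.8 ± 4.87, so its -0.96 rests on the stand-in signal and is no exact size.

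The members higher on the oral mucosa array were well above the detection limit in both tissues. For miR-466f, the spots read 1462 and 790 on skin and 4109 and 3100 on oral mucosa, a difference of 1.25 ± 0.71. For miR-466j they read 813 and 595 against 2386 and 1903, a difference of 1.20 ± 0.41. For miR-297a-5p they read 276 and 214.2 against 680 and 694, a difference of 1.17 ± 0.31. In each case both oral mucosa spots were brighter than both skin spots, by more than the scale ratio between the arrays. Comparing first spots with first spots and second with second gave 1.06 and 1.56 for miR-466f, 1.14 and 1.28 for miR-466j, and 0.96 and 1.42 for miR-297a-5p. All 3 stayed past 2-fold under each of the 7 other normalizations tried, with differences of 1.23 to 1.68, 1.16 to 1.61 and 1.04 to 1.49 in that order.

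Members higher on the skin array were dimmer, with 1 exception. For miR-466p-5p, the spots read 114 and 116 on skin and 73.9 and 73.0 on oral mucosa, a difference of -1.96 ± 0.042. For miR-466a-5p, whose sequence is that of miR-466p-5p with 1 more base at the 3′ end, they read 130 and 91.5 against 88.1 and 71.4, a difference of -1.57 ± 0.75. For miR-466e-5p they read 119 and 92.5 against 83.0 and 73.8, a difference of -1.53 ± 0.50. These 3 were close to the limit in oral mucosa, with means less than 8 scanner units above it, and for none did the spots of the arrays overlap. For miR-466b-5p the spots read 155 and 113 against 117 and 91.8, a difference of -1.18 ± 0.64, and here the skin and oral mucosa spots overlapped before scaling. The exception was miR-669o-5p, with 550 and 457 on skin and 310 and 361 on oral mucosa, a difference of -1.14 ± 0.28 without overlap.

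The direction of these 5 differences held under all 7 other normalizations, but their size did not. Without any normalization, miR-466p-5p differed by -0.65, miR-466a-5p by -0.47, miR-466e-5p by -0.43, miR-466b-5p by -0.36 and miR-669o-5p by -0.59, and none of the 5 was past 2-fold. Of the 7 other normalizations, miR-466p-5p was past 2-fold in 5, miR-669o-5p in 3, and miR-466a-5p, miR-466b-5p and miR-466e-5p in 2 each. Those 2 settings are themselves forms of VSN (after normexp background correction, and from a single start). These 3 were past 2-fold under none of the other 5 settings, among them the authors' processed values with 50 added to each. In those 5 settings, miR-466p-5p was past 2-fold in 3 and miR-669o-5p in 1. The method behind the processed values is not given. Before the 50 was added to them, all 5 members were more than 2-fold higher in skin in the processed values.

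**Figure D3:**
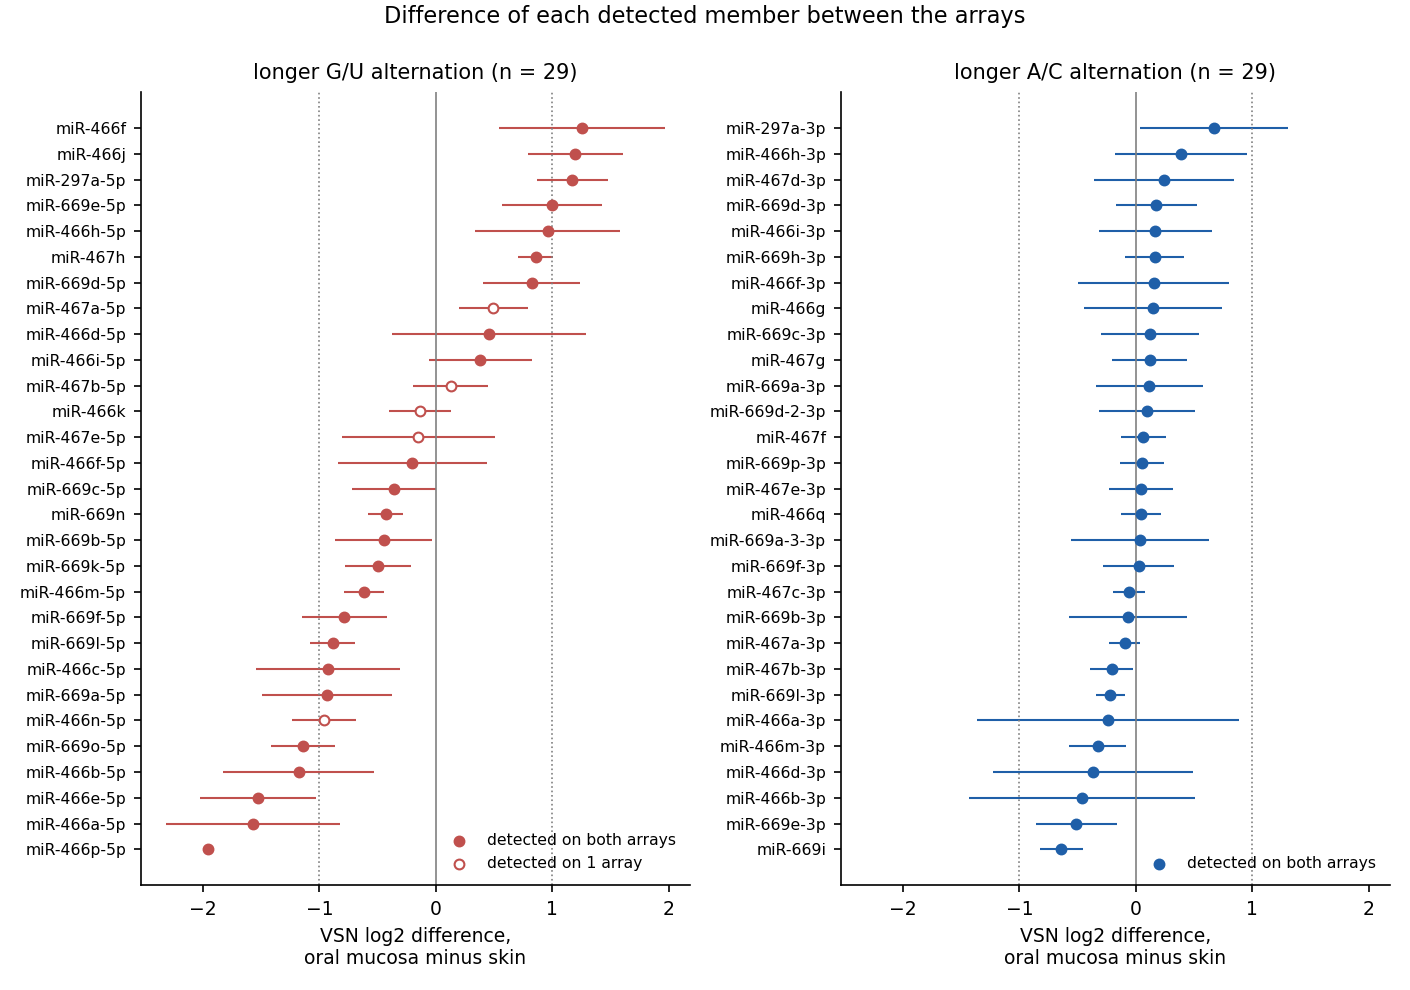
VSN log2 difference (oral mucosa minus skin) of each of the 58 detected members, split by whether the G/U run (left) or the A/C run (right) is the longer in its sequence. Bars are the SD of the repeat spots, open circles are members detected on 1 array only, dotted lines mark 2-fold, and the G/U members spread from -1.96 to 1.25 while all A/C members lie between -0.64 and 0.67.

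The spread of differences was unequal between the repeat kinds. In 36 members the G and U run is the longer, and these are all 30 5p members and 6 without an arm in their name. In 35 members the A and C run is the longer, and these are all 29 3p members and 6 without an arm, so repeat kind and arm cannot be told apart. Each kind had 29 members detected on at least 1 array. The differences of the G/U members had an SD of 0.92 and a median of -0.36, and this kind held all 8 members past 2-fold. Those 8 are 27.6% of the detected G/U members, near the 28.5% of all detected probes that were past 2-fold in either direction, and the SD over all detected probes was 1.15. It was the A/C kind that lay below the array as a whole, with 0 of 29 past 2-fold. The differences of the A/C members had an SD of 0.28 and a median of 0.05. Their most distant values were 0.67 ± 0.64 for miR-297a-3p and -0.64 ± 0.19 for miR-669i.

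Error within an array was alike for the 2 kinds, with a median repeat-spot SD of a difference of 0.41 for G/U members and 0.35 for A/C members. The contrast was also present among the bright members alone. In those above 200 scanner units on both arrays, the SD of the differences was 0.89 over 17 G/U members and 0.20 over 19 A/C members. Over all detected members and the other normalizations, the SD was between 0.73 and 0.92 for the G/U kind and between 0.22 and 0.28 for the A/C kind, where settings that only shift an array by a constant give the same SD. The medians moved with the scale of the arrays. Without normalization they were 0.10 for G/U members and 0.48 for A/C members, where the median of all detected probes moved to 0.40.

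The contrast can also be read arm against arm within a name, although names such as miR-669a and miR-466b stand for several precursors. In 15 microRNA names both arms were detected on both arrays, and the 5p arm had the larger difference in size in all 15. The median size was 0.82 for 5p arms and 0.22 for 3p arms. The count fell to 14 after quantile normalization and after scaling to the 75th percentile, 13 after scaling to the median, 12 with the authors' processed values and 9 without normalization, where the median sizes were 0.37 and 0.47. The arms lay on the same side of 0 in 9 of the 15. They were apart by more than the combined SD of their repeat spots in 5, all of the miR-669 family (miR-669a, miR-669d, miR-669e, miR-669f and miR-669l), and within it in the other 10. For the miR-466 names this SD holds much of an offset between first and second spots that both arrays share. With first spots set against first and second against second, the differences of the arms did not overlap in 14 of the 15, which were 7 of 7 miR-466 names and 7 of 7 miR-669 names, and miR-297a was the exception. For miR-466a they were -1.59 and -1.54 for 5p and -0.66 and 0.57 for 3p. For miR-669e, the 5p arm read 375 and 264 on skin and 868 and 771 on oral mucosa (1.00 ± 0.43), and the 3p arm read 1598 and 1276 against 1565 and 1225 (-0.51 ± 0.35). The 5p arm was thus brighter in oral mucosa while the 3p arm hardly moved before scaling and lay below 0 after it. For miR-669a the 5p arm differed by -0.93 ± 0.56 and the 3p arm by 0.11 ± 0.46. For miR-669l the values were -0.88 ± 0.19 and -0.22 ± 0.13, and for miR-669d 0.82 ± 0.41 and 0.17 ± 0.35. Both arms of miR-297a were higher in oral mucosa, at 1.17 ± 0.31 for 5p and 0.67 ± 0.64 for 3p. For miR-466b the values were -1.18 ± 0.64 and -0.46 ± 0.97, and that of the 3p arm turned to 0.12 without normalization. In that setting the sign also turned for the 3p arms of miR-466a, miR-466d, miR-466m, miR-467a, miR-467b, miR-669b and miR-669l. It turned too for the 5p arms of miR-466f, miR-669b and miR-669c.

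Among the remaining names, 5p and 3p arms of miR-466a differed by -1.57 ± 0.75 and -0.24 ± 1.13, and those of miR-669f by -0.79 ± 0.37 and 0.02 ± 0.30. The miR-466h arms differed by 0.96 ± 0.62 and 0.39 ± 0.57, and those of miR-466m by -0.62 ± 0.17 and -0.33 ± 0.24. The 5p arm of each lay farther from 0 under VSN, which did not hold for miR-669f and miR-466m without normalization. Smaller 5p differences were measured for miR-466d (0.46 ± 0.83, with -0.37 ± 0.86) and miR-669b (-0.45 ± 0.42, with -0.07 ± 0.51). The 5p and 3p values were 0.38 ± 0.44 and 0.17 ± 0.49 for miR-466i, -0.36 ± 0.36 and 0.12 ± 0.42 for miR-669c, and -0.20 ± 0.64 and 0.15 ± 0.65 for miR-466f. The 5p arms of miR-467a, miR-467b and miR-467e were detected only on the oral mucosa array, with means of 89.0 ± 8.81, 79.4 ± 7.45 and 73.6 ± 12.3, against 36.8 ± 3.77, 36.6 ± 4.09 and 41.2 ± 5.06 on the skin array. The skin spots of all 3 lay below the limit of 59.9, so the size and sign of their differences rest on the lowest detected signal that stands in for skin, and they were left out of the counts of arms. Their 3p arms, detected on both arrays, differed by -0.10 ± 0.13 for miR-467a, -0.21 ± 0.18 for miR-467b and 0.05 ± 0.27 for miR-467e.

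Members that share a seed can act on the same targets, and 44 of the 71 shared one with another member. There were 42 distinct seeds, 15 of them in at least 2 members, and 9 with at least 2 members detected on both arrays. Some seed groups lay together. The seed AUGUGUG of miR-466a-5p, miR-466e-5p and miR-466p-5p had differences of -1.57, -1.53 and -1.96, all toward skin. The seed GUUGUGU of miR-669a-5p, miR-669f-5p and miR-669l-5p ran from -0.93 to -0.79, and the seed GAUGUGU had -1.18 for miR-466b-5p and -0.93 for miR-466c-5p. The seed UAUACAU, shared by 7 members of the A/C kind of which 6 were detected, ran from -0.22 to 0.24.

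In 4 of the 9 seed groups, members detected on both arrays lay on both sides of 0. The clearest was GUGUGCA, with 1.20 for miR-466j, 0.96 for miR-466h-5p and -0.62 for miR-466m-5p. The rest of the 4 were seeds of the A/C kind. AUACAUA ran from -0.37 to 0.67, UAUACAU from -0.22 to 0.24 and AUAUACA from -0.10 to 0.02. The seed GUGUGUG was not among the 4, with 0.46 for miR-466d-5p and 0.38 for miR-466i-5p, and miR-466k detected on oral mucosa only. In the seed UAAGUGU, which was not among the 9, miR-467h lay at 0.86 ± 0.15, and miR-467e-5p was detected on oral mucosa only.

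Near-identical members were also compared in pairs. In 21 pairs the mature sequences are 1 base change apart, by a substitution or by 1 base more or less at an end or inside, or are shifted by 1 base, and in 16 of these both members were detected on both arrays. Of 7 such G/U pairs, 3 were apart by 2-fold or more, with a median distance of 0.78 and a largest of 1.82. Of 9 A/C pairs none was, with a median of 0.22 and a largest of 0.45. Over the other normalizations the counts stayed at 3 and 0, while the median of the G/U pairs went down to 0.22 with quantile normalization, beside 0.16 for the A/C pairs. Members lay on both sides of 0 in 3 of the G/U pairs and 5 of the A/C pairs. Substitutions are given with the base of the first named member, its position counted from 1 at the 5′ end, and the base of the second.

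The pair miR-466j and miR-466m-5p differs by A23U, the last base. The spots of miR-466j read 813 and 595 on skin and 2386 and 1903 on oral mucosa, and those of miR-466m-5p 700 and 617 on skin and 629 and 573 on oral mucosa. The first was brighter in oral mucosa and the second was not, and the distance of 1.82 ± 0.45 between their differences exceeded the spread of the repeat spots. It was 1.54 to 1.82 over all normalizations.

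The pair miR-669d-5p and miR-669l-5p differs by C2G, within the seed. The spots of miR-669d-5p read 290 and 213 on skin and 613 and 517 on oral mucosa, and those of miR-669l-5p 655 and 551 against 457 and 477. The first was higher in oral mucosa (0.82 ± 0.41) and the second higher in skin (-0.88 ± 0.19), 1.71 ± 0.46 apart and between 1.39 and 1.71 over all normalizations. In miR-297a-5p and miR-297c-5p, which differ by G17A, the first was 2-fold higher in oral mucosa and the second was detected on neither array, with means of 49.1 ± 3.46 and 56.4 ± 0.764.

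In the pairs of miR-466d-5p with miR-466n-5p and of miR-467e-5p with miR-467h (A10U), 1 member was detected on a single array, so their distances rest on the stand-in signal and are not given.

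A/C pairs were close. The widest was miR-467b-3p and miR-467d-3p (A18U), 0.45 ± 0.63 apart, followed by miR-467a-3p and miR-467d-3p (shifted by 1 base), 0.33 ± 0.62 apart. Both distances were within the spread of the repeat spots. The shifted pair miR-466f-3p and miR-466i-3p was 0.01 ± 0.81 apart. How far each probe also binds its near-identical relatives was not tested, and values of such members are not independent of each other.

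**Figure D4:**
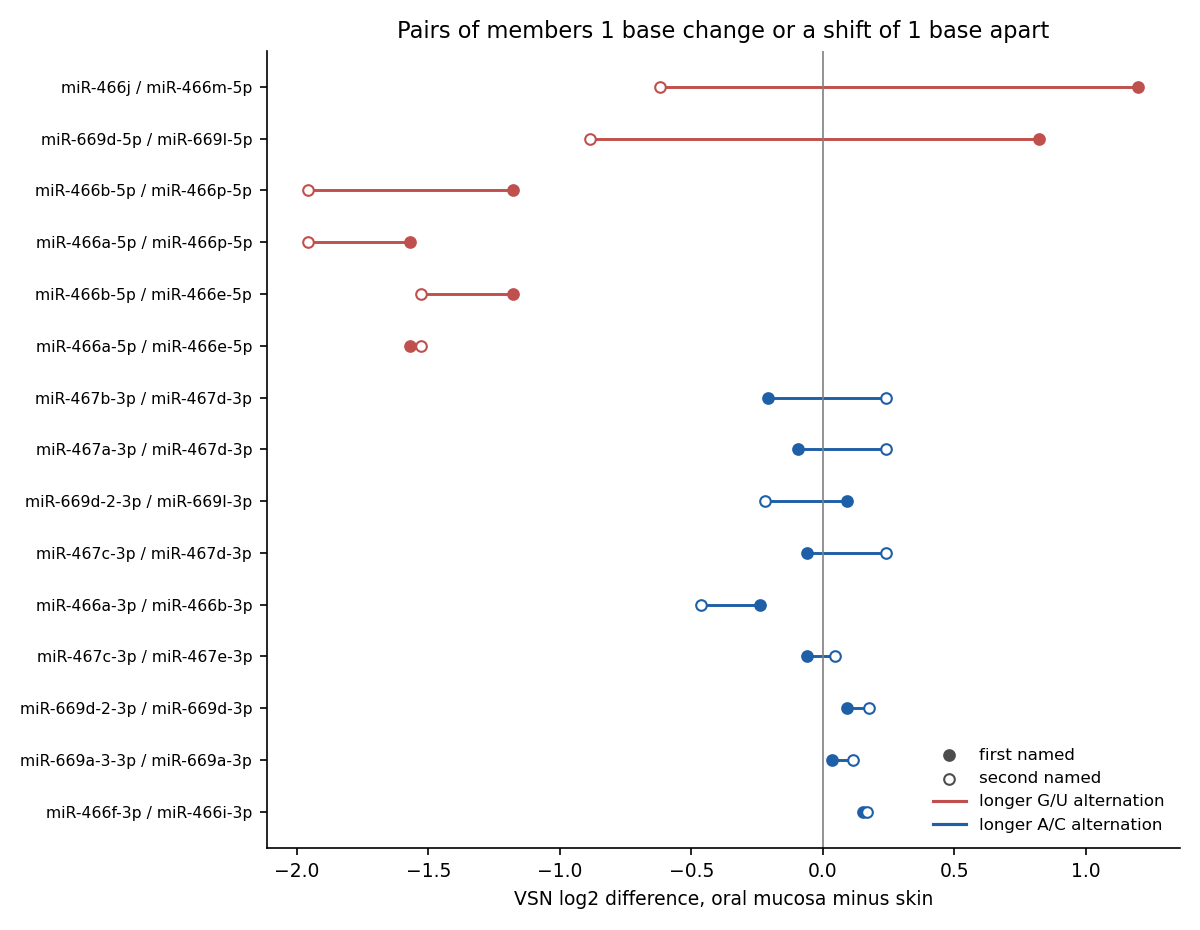
VSN log2 difference (oral mucosa minus skin) of both members of 15 of the 16 near-identical pairs detected on both arrays, with the first named member as a filled circle and the second as an open one. Lines join the members of a pair, and the longest, from miR-466m-5p at -0.62 to miR-466j at 1.20, are of the G/U kind.

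The genes for these microRNAs lie mostly, but not all, inside Sfmbt2. In RefSeq, Sfmbt2 spans chr2:10370440-10595253 on the plus strand (GRCm38.p6), and 72 of the 82 precursor genes of the 4 families lie within it. They fill a stretch of 51.6 kb that begins 96.2 kb from the start of the gene. Several names stand for many copies, among them miR-669a with 12 precursors, miR-467a with 10 and miR-466b with 8, all inside Sfmbt2. The array reads such copies as 1 value. The remaining 10 precursors lie elsewhere, 5 of them within the protein-coding genes Fxr2, Cdk13, Tnik, Slc30a7 and Grk4.

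All 5 members higher in skin have their precursors inside Sfmbt2 alone, and none of the 3 higher in oral mucosa does. Of all 58 detected members, 44 are encoded inside alone. Among the 5, miR-466a-5p, miR-466b-5p, miR-466e-5p and miR-466p-5p are near-identical, and with such members averaged the count higher in skin was 2. The split also rests on the normalization. Of the members encoded inside only, miR-669e-5p (1.00) and miR-466h-5p (0.96) were just under 2-fold toward oral mucosa and past it after quantile normalization (1.11 and 1.07) and after scaling to the median (1.05 for each), where 1 and 0 of those members were past 2-fold toward skin. The precursor of miR-466j lies on chromosome 10, with the mature sequence at chr10:60960802-60960824 on the plus strand, where RefSeq places no other gene across it. For miR-466f 3 of 4 precursors are inside Sfmbt2 and 1 is on chromosome 13, and for miR-297a 3 of 4 are inside and 1 is on chromosome 7. The 44 detected members with precursors inside Sfmbt2 only had a median difference of -0.18, and the 9 encoded only elsewhere had 0.12, of which all 9 were detected. The 5 encoded at both had 0.67. In the same order the medians were -0.03, 0.24 and 0.57 after scaling to the median, and 0.28, 0.54 and 0.87 without normalization. The 57 inside-only members include 13 that were detected on neither array, and these are all the undetected members. They also include all 10 members with an alternating run of 5 bases or less, while the 9 encoded only elsewhere have runs of 7 to 20 bases. Detection by locus was not told apart from detection by run length.

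Members encoded outside included miR-467h (chr9:115381898-115381919, plus strand), with 155 and 142.8 on skin and 336 and 310 on oral mucosa (0.86 ± 0.15), and miR-467g (chr5:34732872-34732892, minus strand, within Grk4) at 0.12 ± 0.32. The value was 0.04 ± 0.17 for miR-466q (chr3:28419988-28420007, plus strand, within Tnik), 0.06 ± 0.19 for miR-467f (chr11:69635419-69635439, minus strand, within Fxr2) and -0.43 ± 0.15 for miR-669n (chr3:115979905-115979924, plus strand, within Slc30a7). At the start of the stretch inside Sfmbt2, the first copies of miR-466f stand in a row with the precursors of miR-466m, miR-669e, miR-669d and miR-669l, whose 5p members lay on either side of 0.

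**Figure D5:**
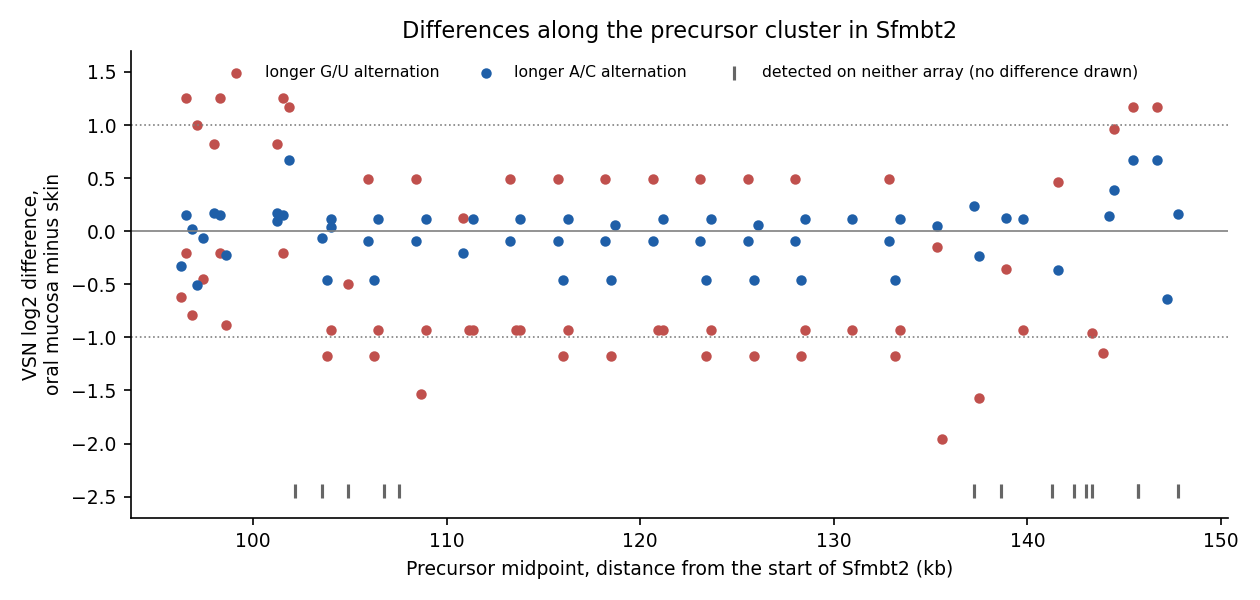
VSN log2 difference (oral mucosa minus skin) of detected members against the midpoint of each precursor, as distance from the start of Sfmbt2 in kb, with grey ticks for members detected on neither array. A member with several precursors, matched by name, is drawn at each of them with its 1 measured value. Dotted lines mark 2-fold, and points lie above and below 0 along the 51.6 kb.

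Probes outside the families with a similar repeat gave a comparison. Of the 1821 other probes, 27 hold GUGUGU or ACACAC in the mature sequence, 19 of them were detected and none was past 2-fold, with a median of 0.04. By the longest run instead, the 16 detected other probes with a run of 6 had 1 past 2-fold, toward skin, a lowest value of -2.15 and an SD of 0.72. The 4 with a run of 7 and the 8 with a run of at least 8 had none, with SDs of 0.46 and 0.48. The 12 detected with GUGUGU had a median of -0.17 with 9 below 0, and the 7 detected with ACACAC a median of 0.41 with all above 0. The 3 brightest were miR-574-5p (5274 ± 982 on skin and 10562 ± 955 on oral mucosa, a difference of 0.55 ± 0.30), miR-1187 (3915 ± 37.5 and 8939 ± 149, 0.74 ± 0.028) and miR-574-3p (1094 ± 240 and 1977 ± 165, 0.41 ± 0.35). The SD of the differences was 0.47 over those with GUGUGU, beside 0.92 for the G/U members, and 0.32 over those with ACACAC, beside 0.28 for the A/C members. The 98 probes of the imprinted Dlk1-Dio3 microRNA cluster gave another. Only 9 of them (9.18%) were detected, against the 58 of 71 members, and 2 of the 9 were past 2-fold, both higher in skin.

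The tissue labels were set against marker microRNAs. All 7 epithelial markers were detected on both arrays, with summed signals before scaling of 49225 on skin and 48779 on oral mucosa, of which miR-205-5p and miR-203-3p gave most. After scaling they lay on both sides of 0, from -1.22 ± 0.46 for miR-200c-3p to 1.12 ± 0.89 for miR-429-3p, with -0.51 ± 0.59 for miR-205-5p and -0.48 ± 0.37 for miR-203-3p. Markers of trunk Hox clusters were detected as 3 of 4 on skin (sum 2453, most from miR-10b-5p) and 0 of 4 on oral mucosa (sum 191). Markers of other cell types differed between the arrays to unequal extents. The red blood cell marker miR-451a read 67.3 ± 7.34 on skin and 3056 ± 171 on oral mucosa, while miR-144-3p was detected on neither array. Mesenchymal markers were detected as 3 and 4 of 4, with sums of 437 and 1711 before scaling. Among them miR-214-3p was the brightest on both arrays, at 184 ± 19.0 and 948 ± 11.8, a difference of 2.17 ± 0.19. Skeletal muscle markers were detected as 1 and 3 of 4, with sums of 297.2 and 427.8 before scaling. The brightest on both arrays was miR-206-3p, at 146 ± 26.5 and 177 ± 1.34, a difference of -0.19 ± 0.36. Only the oral mucosa array detected miR-133a-3p (48.4 ± 1.22 on skin and 96.0 ± 8.24 on oral mucosa) and miR-133b-3p (49.9 ± 1.22 and 90.2 ± 4.01). Neither array detected miR-1a-3p. The endothelial marker miR-126a-3p was detected only on oral mucosa (43.4 ± 20.1 and 155 ± 51.0). The part of these markers in the members' differences was not tested.

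The place of a spot on the array moved with its reading. In 52 of the 54 members detected on skin the first repeat spot was the brighter, by a median of 0.38 on the log2 scale, and in 49 of 57 on oral mucosa, by 0.23. For other detected probes the medians were 0.17 and 0.10. In the members named miR-466a to miR-466l it was 17 of 17 on skin (0.66) and 18 of 18 on oral mucosa (0.38), so much of the repeat-spot SD of these members is a difference shared by both arrays.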

How the data were processed

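RNA of 1 pool per tissue was labelled with Cy5 and hybridised by a service provider to an array of probes for miRBase mouse microRNAs. The authors deposited the median intensity of each of 3968 spots per array, 184 of them control spots, without background subtraction or normalization, and a table of processed intensities whose method is not given in the sources used here. Values are from the spot intensities except where the processed values are named as an alternative or are part of a range over normalizations. The 2 repeat spots were averaged, and VSN was written in Python (3.11.15, numpy 2.4.6, scipy 1.17.1, pandas 2.3.3) with least trimmed squares keeping 90% of the probes in each of 5 slices except the dimmest, from 12 starts. It was tested on simulated arrays with 4-fold changes among the brighter probes, so the test does not show how well 2-fold differences are recovered. Figures were drawn with matplotlib 3.10.9. The study names VSN with CyberT, which needs replicates, so a size rule of 2-fold without p-values was used. Alternatives were no normalization, quantile normalization, scaling to the 75th percentile or to the median, the processed values as log2(value + 50), normexp with offset 50 (R 4.3.3, limma 3.58.1) before VSN, VSN from a single start, other limits, filters and thresholds, and averaging of near-identical members.

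Named members were those past 2-fold, the 8 brightest on each array, those beside the detection limits and both arms where both were detected, with the 3 brightest other repeat probes. Further members of seeds, pairs and precursors outside Sfmbt2 were named after their values were seen. The members and lists were chosen with earlier results of these data known. Precursor positions are from RefSeq (GRCm38.p6), and every member was matched by name to at least 1 precursor. By this match miR-669a-3p and miR-669d-3p are also placed at the precursor copies of miR-669a-3-3p and miR-669d-2-3p. Which copies yield each mature sequence was not checked. The sequences of 2 members and the comparison between them are not reported here.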

Additional observations from a re-analysis of the deposited data

How the results depend on the processing

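Higher in oral mucosa by 2-fold were 3 members. This count was 5 after quantile normalization and after scaling to the median, 7 without normalization and 7 without the detection filter, 0 for members encoded inside Sfmbt2 only, 8 at 1.5-fold and 0 at 4-fold. Higher in skin were 5 members, and this count was 1 after quantile normalization, 0 after scaling to the median, 2 after scaling to the 75th percentile, 0 without normalization, 1 with the authors' processed values, 2 with near-identical members averaged, 7 without the detection filter, 12 at 1.5-fold and 0 at 4-fold. The median difference of the members moved from -0.02 to 0.40 without normalization, as did that of all detected probes (0.40), and scaling to the median moved the latter to 0.09. Other filters, thresholds and membership move the counts by construction, and for the normalizations the cause was not tested. No member past 2-fold changed direction, but the balance of 3 against 5 members turned to 5 against 1, 5 against 0 and 7 against 0 under quantile normalization, median scaling and no normalization, to 4 against 1 with the processed values and to 3 against 2 with the 75th percentile. Over all 562 detected probes the shares past 2-fold toward oral mucosa and skin were 7.47% and 6.76%, 8.36% and 6.76%, 14.2% and 3.91%, 7.83% and 7.65%, and 6.41% and 8.72% in that order. The processed values were used with 50 added to each, and before that all 5 members higher in skin were more than 2-fold apart in them. Quantile normalization, both scalings and no normalization took no background off, which makes differences between dim signals smaller. How much of the turn this accounts for was not tested. Normexp before VSN and VSN from a single start gave 3 and 5 members as before. No paired analysis was possible because a single array per tissue leaves no replicate numbers to match. Members detected numbered 52 to 57 on skin and 50 to 57 on oral mucosa over the other limits and filters. The other normalizations of the class medians, SDs, shares, arm, pair and locus counts, and the restrictions to signals above 200 and to members detected on both arrays, and the comparison of arms spot by spot, were chosen after seeing the data. Dim signals limit the size of the differences of members near the detection limit, and 1 array per tissue limits all of them.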
